A study of Mus musculus with 18 samples.

Results

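The genes described here handle threonine, glycine and serine and carry amino acids into mouse cells during reprogramming to induced pluripotent stem cells (iPSC). They were given as a list of 10 genes: Tdh, Gcat, Gldc, Shmt2, Mthfd2, Phgdh, Psat1, Slc38a5, Slc7a3 and Slc7a7. Their measurements are all probe sets (groups of array probes read as 1 value) that the array annotation pairs with them, on all 18 arrays of the series. Of the 10 genes, 8 had a listed probe set, and 11 of the 40508 probe sets on the array belonged to them. Of these, 8 named 1 gene alone and gave values for 7 genes, with Mthfd2 read by a pair of probe sets, out of 17903 genes in all. The other 3 were listed for Gcat together with its neighbour Galr3 and are kept apart here under both names. Tdh and Phgdh were not analysed here.

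All samples were mouse cells in which the transcription factor Tcf3, now named Tcf7l1, was present (wt) or knocked out (ko). Cultures reprogrammed with OCK (the factors Oct4, c-Myc and Klf4) were sampled on days 11, 15, 19, 22 and 26 of reprogramming, with 1 wt and 1 ko array a day. The established iPSC clones were 1 wt and 2 ko clones made with OSK (Oct4, Sox2 and Klf4) and 2 ko clones made with OCK, each on 1 array. A single partially reprogrammed OCK clone, labelled Tcf3 wt, was treated with control siRNA (1 array) or with siRNA A or B against Tcf3 (1 array each) and collected on day 2 after treatment. No wt OCK iPSC clone was analysed here, so factors and genotype cannot be separated over all clones. The labels do not say whether the days of a genotype came from 1 culture, so the days are not replicates of a condition. The p-values thus rest on array-to-array spread, part of which may be technical.

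In mouse embryonic stem (ES) cells threonine is broken down by Tdh and Gcat to acetyl-CoA and glycine, and pluripotent mouse cells are known for their need of threonine. Glycine is cleaved by a complex that holds Gldc. Shmt2 turns serine into glycine in mitochondria, and both reactions load one-carbon units on folate, which Mthfd2 oxidizes for the building of purines and other products. Phgdh and Psat1 act early in the synthesis of serine from a glycolysis intermediate. Many of these enzymes and several transporters are known targets of Atf4, the transcription factor of the response to amino acid shortage.

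Signal was on a log2 scale with a lowest stored value of 5.64, called the floor here, which stands for any lower level. Between 12102 and 12499 of 17903 genes lay above it on an array. Tcf7l1 itself lay at 9.06 to 9.90 in wt and 8.10 to 9.48 in ko cultures, at 10.68 in the OSK wt clone and 9.37 to 9.56 in the 4 ko clones, and at 9.93 with control siRNA and 8.80 and 8.77 with siRNA A and B. These values are of 1 of its probe sets. On the other it lay at 8.29 to 9.21 in wt and 7.04 to 8.87 in ko cultures. There it read 10.07 in the OSK wt clone and 8.67 to 8.83 in the 4 ko clones. With control siRNA it read 9.86, and with siRNA A and B 7.79 and 7.56. On both probe sets Tcf7l1 was thus lower in each depleted group than in its control but above the floor. Where its probes lie relative to the deletion is not stated by the labels. The 10 pluripotency markers gave a mean log2 signal of 6.36 to 9.66 in the cultures, 12.19 to 12.43 in the established clones and 8.10 to 8.28 in the partial clone. The mean of 10 fibroblast markers lay at 11.52 to 13.01, 6.60 to 8.06 and 9.12 to 9.59 in the same order, so the cultures kept a high fibroblast signal to the end.

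All 7 genes with a probe set of their own rose over the time course, the transporters Slc38a5 and Slc7a3 and the glycine-cleaving enzyme Gldc most. Gldc had a log2 signal of 6.56, 6.80, 8.48, 8.24 and 8.81 in wt cultures on days 11, 15, 19, 22 and 26, and of 6.27, 6.36, 8.60, 9.05 and 9.28 in ko cultures. The 4 arrays of days 11 and 15 lay below the other 6 without overlap, and the largest step, 1.96 on the mean of both genotypes, fell between days 15 and 19. Its fitted rise was 0.20 ± 0.027 log2 per day (SE, 10 arrays; limma adjusted p = 0.00407), which is 7.92-fold over the 15 days.

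The folate and serine enzymes rose less. Shmt2 read 8.46, 8.54, 9.02, 9.52 and 9.35 in wt and 8.44, 8.17, 9.03, 10.20 and 9.62 in ko cultures, with the highest array on day 22 in both genotypes. Mthfd2 read 8.54, 8.93, 9.77, 9.60 and 9.30 in wt and 8.42, 8.41, 9.50, 10.34 and 9.55 in ko. It was highest on day 19 in wt and on day 22 in ko, and its other probe set, with 7.92 to 10.31 over the cultures, was highest on the same days. Psat1, an aminotransferase of serine synthesis, read 10.20, 10.29, 10.79, 10.98 and 10.74 in wt and 9.94, 9.78, 10.66, 11.68 and 10.82 in ko, again with its highest array on day 22. All 3 enzymes were lower on day 26 than on day 22 in both genotypes, by 0.37 for Shmt2, 0.55 for Mthfd2 and 0.55 for Psat1 on the mean of the genotypes, a step that was not tested. The rise per day was 0.095 ± 0.022 for Shmt2 (limma adjusted p = 0.0139), 0.086 ± 0.026 for Mthfd2 (0.0315) and 0.072 ± 0.023 for Psat1 (0.0374), or 2.68-, 2.45- and 2.12-fold over the course.

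The first of the 3 probe sets listed for Gcat and Galr3 had 7.78, 8.58, 9.51, 9.44 and 9.28 in wt and 7.58, 8.09, 9.68, 10.11 and 9.53 in ko cultures. Gcat encodes the ligase that makes glycine from the product of Tdh, and Galr3 a galanin receptor, and the array cannot say which of them was read. In a fit of all 24945 probe sets with a signal, this one rose by 0.13 ± 0.028 per day (limma adjusted p = 0.0119), where 15.1% of the probe sets passed as higher. The second of them was at the floor on all 18 arrays and the third lay between 6.26 and 7.04 on all of them (-0.027 ± 0.011 per day, limma adjusted p = 0.0834).

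Among the transporters, Slc38a5, which exchanges sodium and protons while carrying glutamine, serine and other neutral amino acids, had no signal above the floor on day 11 in either genotype and was well above it from day 15 on. It read 9.57, 11.02, 12.26 and 11.24 in wt and 8.70, 11.64, 12.42 and 11.97 in ko cultures on days 15, 19, 22 and 26. Against the floor on day 11 the mean of both genotypes was at least 11.2-fold higher on day 15, at least 51.6-fold on day 19, at least 104-fold on day 22 and at least 62.3-fold on day 26. Its slope of 0.41 ± 0.073 per day (limma adjusted p = 0.00685) was the largest in size of all 13428 genes tested, and depends on the value stored at the floor.

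Slc7a3, a carrier of arginine, lysine and ornithine, rose more evenly. It read 7.35, 8.99, 9.46, 10.02 and 10.28 in wt, higher on each day than on the one before, and 7.04, 8.27, 9.88, 10.72 and 10.61 in ko. The rise was 0.22 ± 0.026 per day (limma adjusted p = 0.00304), or 10.2-fold over the course, and 0.477% of the tested genes had a slope of larger size. Slc7a7, the transport subunit of a heteromer that exchanges cationic for neutral amino acids, stayed low in the cultures. It read 5.94, 6.55, 6.61, 7.39 and 6.59 in wt and 6.30, 6.45, 6.59, 6.86 and 7.37 in ko, with a rise of 0.063 ± 0.018 per day (limma adjusted p = 0.0265), or 1.92-fold over the course.

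**Figure D1:**
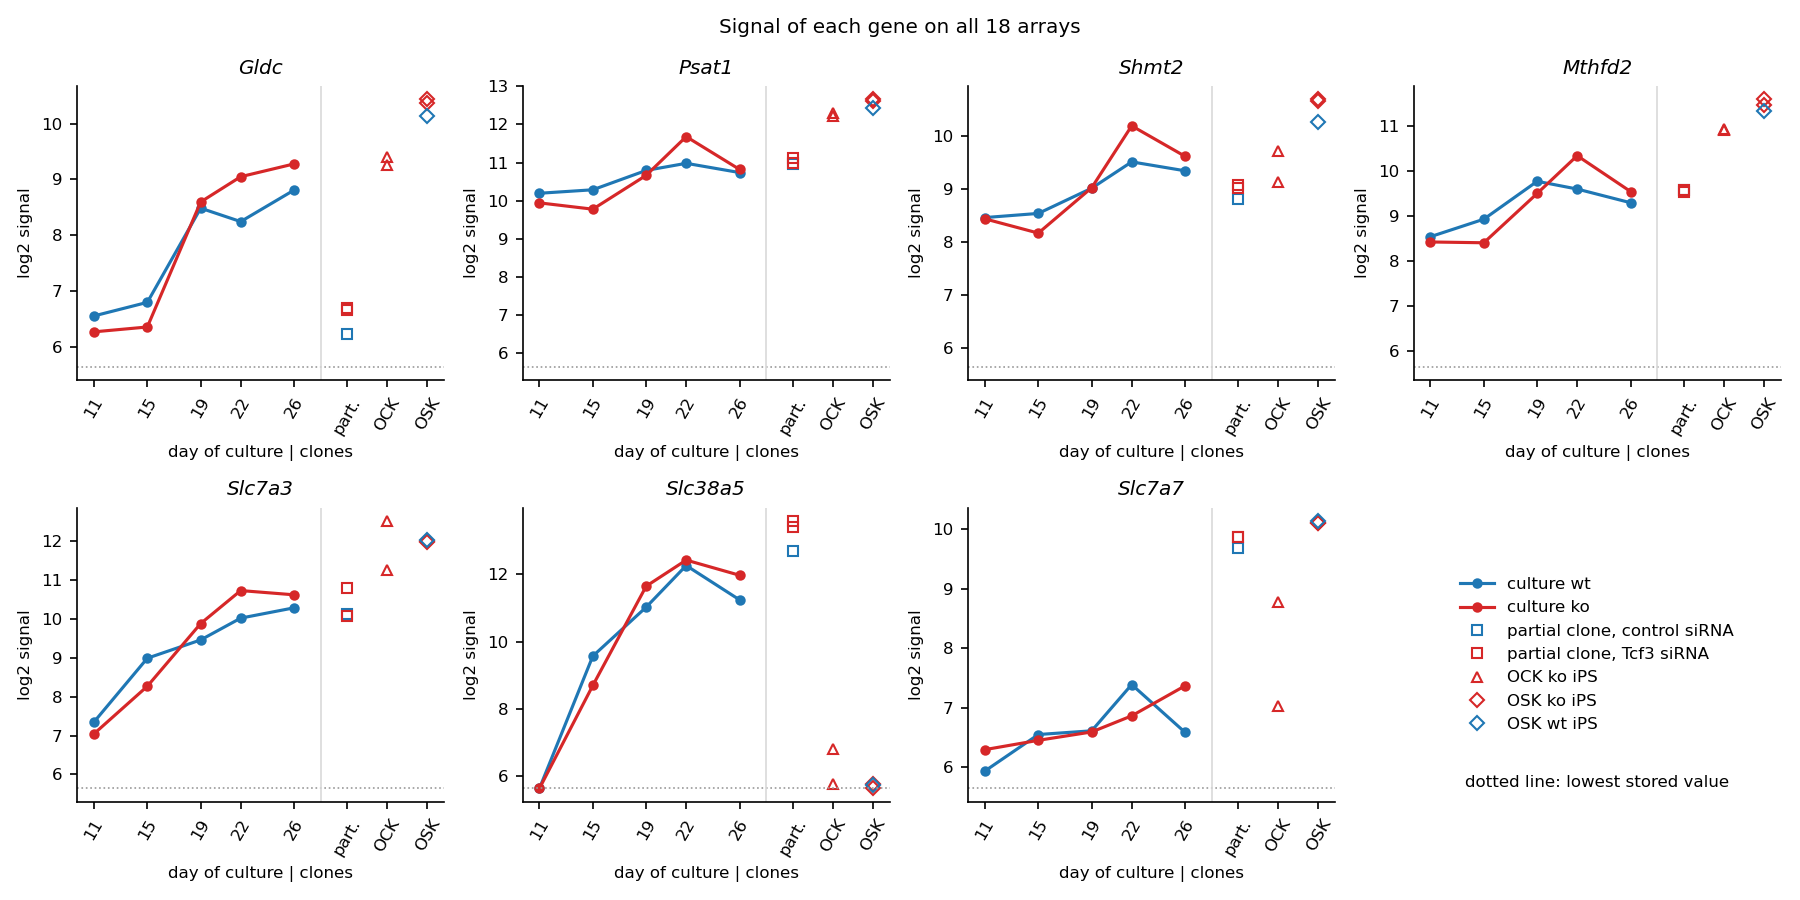
Log2 signal (y axis) of the 7 genes with a probe set of their own on each of the 18 arrays. Lines join the OCK cultures of wt (blue) and ko (red) cells by day, open symbols on the right are the arrays of the partial clone (squares), the OCK ko iPSC clones (triangles) and the OSK iPSC clones (diamonds), and the dotted line is the floor of 5.64. Slc38a5 is highest in the partial clone. In the established clones it is at or near the floor, except in OCK ko clone 2, where it is at 6.80. Slc7a7 is low in the cultures and above 9.6 in the partial clone and the OSK clones.

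The sequence before the gene start is shown for Slc7a7 and Slc38a5, because a searched motif was found in their promoter windows. RefSeq promoter windows (GRCm38.p6, 250 bases before to 50 after a gene start, 300 bases each) were matched for 8 of the 10 genes, with 13 windows, several starts of Slc7a7 and Psat1 included. In the printed 260 bases, 250 before and 10 after the start, capitals mark the motif matches. The Slc7a7 window is chr14:54417935-54418194 on the minus strand and that of Slc38a5 is chrX:8271131-8271390 on the plus strand.
Slc7a7: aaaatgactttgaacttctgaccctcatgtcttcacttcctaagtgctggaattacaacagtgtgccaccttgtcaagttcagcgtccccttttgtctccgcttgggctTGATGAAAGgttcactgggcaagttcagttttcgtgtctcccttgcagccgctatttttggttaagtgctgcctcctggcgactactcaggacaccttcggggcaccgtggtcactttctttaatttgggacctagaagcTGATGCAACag
Slc38a5: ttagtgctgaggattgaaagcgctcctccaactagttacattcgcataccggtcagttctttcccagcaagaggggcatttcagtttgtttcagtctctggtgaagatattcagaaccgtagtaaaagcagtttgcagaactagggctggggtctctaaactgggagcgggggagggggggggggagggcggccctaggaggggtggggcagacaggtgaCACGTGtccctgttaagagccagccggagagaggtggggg

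The Slc7a7 sequence holds 2 matches to TGATGNAAN, the core of the element to which Atf4 and C/EBP proteins bind together, as TGATGAAAG starting 141 bases before the start and as TGATGCAAC starting 1 base before it. The motif, searched on both strands, was in 3.95% of all 32851 windows and in no window of another listed gene, Psat1, Shmt2 and Mthfd2 included. It was in 2 of the 13 windows, both of Slc7a7. These overlap and share the TGATGCAAC match, and the windows of the other Slc7a7 starts held no match. The Slc38a5 sequence holds the E-box CACGTG, to which c-Myc and related proteins bind, 30 bases before the start, and that motif was in 7.15% of all windows and also in the window of Gcat. The Tcf/Lef core CTTTGAT was in 3.73% of all windows and in none of the 13. The E-box and the Tcf/Lef core were chosen after the values had been seen. A match is a description of letters, not of a bound site, and a missing match says only that these letters are not in the window.

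With limma on the 10 culture arrays all 7 genes passed as higher, where 18% of all 13428 tested genes did. Their median slope was 0.095 per day, against -0.0011 over all genes. That test takes both arrays of a day as independent. A straight line fitted to the means of the 5 days avoids this, and it called Gldc (adjusted p = 0.0403) and Slc7a3 (0.0357) and not the other 5 (0.0541 for Slc38a5 to 0.114 for Psat1), where 1.91% of genes passed as higher. Without day 11 limma called none of the 7, with adjusted p between 0.0714 and 0.275, and no gene at all (3954 of 13374 had an unadjusted p under 0.05). All 7 slopes stayed positive there, at 0.052 for Slc7a7 to 0.23 for Slc38a5. Without day 15 or without day 19 Mthfd2, Psat1 and Slc7a7 did not pass, and without day 22 Mthfd2 did not (adjusted p = 0.0534).

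The other genes of the pathways were less uniform in the cultures. Psph, which completes serine synthesis after Psat1, rose by 0.074 ± 0.024 per day (limma adjusted p = 0.0385). Of 12 folate genes that are not among the 10, 6 rose and 0 fell, with the cytosolic Shmt1 at 0.11 ± 0.028 and Mthfd1 at 0.10 ± 0.022, and with the line through day means 0 of 12 passed. Of 3 tested glycine-cleavage and threonine genes other than those listed, 0 passed. Among 6 genes of the methionine cycle and transsulfuration, Cth, which makes cysteine from cystathionine, rose by 0.21 ± 0.033 per day (limma adjusted p = 0.00528; 0.0493 with day means), and Ahcy rose too, while Mtap fell. Of 28 other amino acid transporters 5 rose and 3 fell, shares near or below those of all genes, of which 18% rose and 18.7% fell. Slc6a15 (0.17 ± 0.038, 3 of 10 arrays at the floor), Slc7a5 (0.11 ± 0.027) and Slc38a1 (0.077 ± 0.016) had the largest changes among those that passed. Of 16 Atf4 response genes 3 rose, among them Asns, the asparagine synthetase, at 0.065 ± 0.016, and 2 fell, which is again near the shares of all genes. With the line through day means 0 of the 28 transporters and 0 of the 16 Atf4 genes passed.

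Markers of cell type also changed over the course, but not all of them in step with these rises. Of 10 pluripotency markers 7 rose, of 10 fibroblast markers 7 fell, of 10 tested macrophage markers 8 fell, of 6 neuron markers 5 rose, all 4 proliferation markers in the table rose, and of 7 trophoblast markers 3 rose. Among all tested genes 18% rose and 18.7% fell. With the line through day means 4 pluripotency, 2 proliferation and 1 trophoblast marker passed and 0 of the fibroblast, macrophage and neuron markers. The mean of the proliferation markers went from 9.25 on day 11 to 10.93 on day 26 in wt and from 8.95 to 10.95 in ko. The mean of the macrophage markers lay between 6.04 and 7.83 in the cultures, and 1 of the 11 was at the floor on all of them. This mean was highest on day 15, at 7.64 in wt and 7.83 in ko. The mean of the neuron markers stayed between 5.96 and 6.16 up to day 19. It was 8.04 in wt and 8.20 in ko on day 22, and 10.24 and 6.34 on day 26. The part of these shifts in the rises of the amino acid genes was not tested. In such bulk samples fewer cells of a type and less RNA per cell cannot be told apart.

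The comparison of ko with wt cultures asks what loss of Tcf3 does to these genes during OCK reprogramming. None of the 7 passed over the 5 days, with differences from -0.021 ± 0.16 for Psat1 to 0.13 ± 0.18 for Gldc (limma with day as a block, adjusted p = 1.00 throughout), where 0% of genes passed and 452 of 13428 had an unadjusted p under 0.05. None of the 7 had an unadjusted p under 0.05. Tcf7l1, the gene knocked out, did not pass this test either (-0.58 ± 0.10), though it was lower in ko on each day. The missing calls thus do not show equal levels. The sign of the difference changed with the day. On day 15 all 7 genes were lower in ko, by 0.097 for Slc7a7 to 0.87 for Slc38a5, and on day 26 all 7 were higher, by 0.082 for Psat1 to 0.78 for Slc7a7. On day 22, 6 of 7 were higher in ko, with 0.80 for Gldc, 0.74 for Mthfd2, 0.71 for Slc7a3, 0.70 for Psat1 and 0.68 for Shmt2, and Slc7a7 was lower, at -0.53. With 1 array per genotype and day none of these daily differences has a replicate check. The share of all genes with the same sign on a day was not computed. The 7 genes also varied together over the culture arrays (Pearson r of 0.611 to 0.973 between pairs), so their shared sign is not 7 separate observations.

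**Figure D2:**
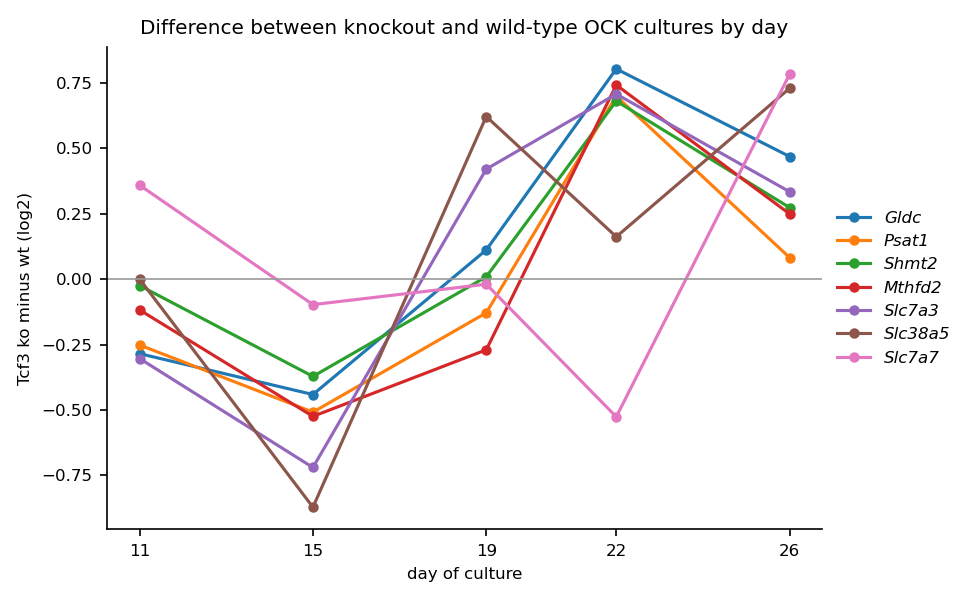
Difference in log2 signal between ko and wt OCK cultures (y axis) on each day (x axis) for the 7 genes, 1 array per genotype and day. All 7 lie below 0 on day 15 and above 0 on day 26, and Slc7a7 is the only one below 0 on day 22; the point of Slc38a5 on day 11 is 0 because both arrays were at the floor.

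All 7 fitted slopes were larger in ko than in wt, for example 0.24 against 0.16 log2 per day for Gldc, 0.26 against 0.19 for Slc7a3 and 0.097 against 0.048 for Psat1. Over all 13428 tested genes 50.4% had the larger slope in ko. None of the slope differences passed or had an unadjusted p under 0.05, at 0.012 ± 0.036 for Slc7a7 to 0.073 ± 0.055 for Gldc (limma adjusted p = 1.00 throughout), where 0% of genes did and 208 of 13428 had an unadjusted p under 0.05. In limma with day as a block too, no gene passed (smallest adjusted p = 0.429), while 1101 had an unadjusted p under 0.05, among them Gldc (0.073 ± 0.023, unadjusted p = 0.0178) and Slc7a3 (0.072 ± 0.030, 0.0497). Without day 26 the slope difference of Slc7a7 was -0.068. The 2 genotypes also differed by day in marker means. On day 15 the proliferation mean was 10.10 in wt and 8.83 in ko and the pluripotency mean 7.29 and 6.46. On day 26 the pluripotency mean was 8.57 in wt and 9.66 in ko, and the mean of 6 neuron markers 10.24 in wt and 6.34 in ko. The mean of 7 trophoblast markers lay between 5.84 and 6.46 on the other arrays of the ko cultures and at 8.68 on day 26, against 6.55 in wt on that day. The part of these shifts in the differences of the 7 genes was not tested.

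In established clones the enzymes and Slc7a3 reached higher signals than in most cultures, and Slc38a5 was at or near the floor in 4 of 5 clones. Mthfd2 read 10.91 and 10.95 in the OCK ko clones, 11.60 and 11.48 in the OSK ko clones and 11.33 in the OSK wt clone. Psat1 read 12.21 and 12.31, 12.61 and 12.66, and 12.43 in the same order, and Slc7a3 11.24 and 12.51, 11.98 and 11.98, and 12.01. These 3 genes lay above all 10 culture arrays, with a gap of 0.56 for Mthfd2, 0.53 for Psat1 and 0.52 for Slc7a3 between the lowest clone and the highest culture, where 25.7% of genes lay higher without overlap. None of the 7 lay lower without overlap, against 19.7% of genes. Slc38a5 overlapped only through the cultures of day 11, which were at the floor. Its cultures from day 15 on, at 8.70 or more, all lay above the clones, which reached at most 6.80. Gldc read 9.25 and 9.40, 10.37 and 10.43, and 10.14, and overlapped with the cultures by 0.027 through the ko culture of day 26. Shmt2 read 9.13 and 9.72, 10.70 and 10.68, and 10.26, and overlapped through the OCK clones.

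The partial clone differed from the established clones in both directions. Slc38a5 read 12.70 with control siRNA and 13.58 and 13.39 with siRNA A and B, above every other array of the series. In the established clones it read 5.78 and 6.80 (OCK ko), 5.77 and the floor (OSK ko) and 5.75 (OSK wt). The fitted difference between established clones and partial clone was -7.18 ± 0.24 (limma adjusted p = 4.03e-06). It is a lower limit of the size, since 1 of the 5 clone arrays was at the floor and 3 others just above it.

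The enzymes went the other way. Gldc read 6.24, 6.69 and 6.67 in the partial clone, which is its level in the cultures of days 11 and 15, and was 11.3-fold higher in the established clones (3.49 ± 0.071, limma adjusted p = 1.11e-06). Mthfd2 read 9.58, 9.54 and 9.57 there and was higher in the clones by 1.70 ± 0.068 (7.14e-06), and Psat1 read 10.97, 10.98 and 11.13 and was higher by 1.43 ± 0.074 (1.74e-05). Shmt2 read 8.81, 9.08 and 9.02 and was higher by 1.19 ± 0.15 (0.000563), though the OCK ko clone 1 at 9.13 was only just above the highest partial array. Slc7a3 read 10.12, 10.08 and 10.80 and was higher by 1.68 ± 0.33 (0.00477).

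Slc7a7 was high in the partial clone and in the OSK clones alike. It read 9.68, 9.87 and 9.87 in the partial clone, 10.14 in the OSK wt and 10.10 on both OSK ko arrays, but 7.03 and 8.77 in the OCK ko clones, and 5.94 to 7.39 in the cultures. The difference between established clones and partial clone was -0.40 ± 0.39 (limma adjusted p = 0.421). Without OCK ko clone 2 it was -0.69 ± 0.055 and passed (adjusted p = 6.55e-05). The first probe set listed for Gcat and Galr3 read 8.75, 9.30 and 8.98 in the partial clone, 10.53 and 10.54 in OCK ko, 10.70 and 10.69 in OSK ko and 9.91 in OSK wt clones, a difference of 1.44 ± 0.097 (limma over all probe sets, adjusted p = 4.5e-05; 31.7% of probe sets passed as higher).

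Thus 5 of the 7 genes passed as higher and 1 as lower in established clones, where 37.3% and 27.4% of all genes did. The median of the 7 was 1.43 and that of all genes 0.058. Genotype, factors and culture history differ between these groups as well, and cannot be told apart from the reprogramming state. The 3 partial arrays all come from 1 clone, so these p-values do not measure the spread between partial clones. Of the marker lists, 9 of 10 pluripotency genes were higher and 1 lower in the established clones, and 9 of 10 fibroblast genes were lower. Of 5 tested neuron markers 4 were higher, of 4 proliferation markers 3 were higher and 1 lower, and of 3 tested trophoblast markers 1 was lower. Of 11 macrophage markers 8 were at the floor on all established clone arrays and 7 on all partial clone arrays. Of the 4 that were tested, 1 was higher and 1 lower.

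The counts of the other pathway genes in this comparison are read against the 37.3% of all genes that passed as higher and the 27.4% as lower. Psph was higher in established clones by 2.09 ± 0.066 (limma adjusted p = 3.24e-06). Of 13 other folate genes 6 were higher and 3 lower, with Shmt1 higher by 1.76 ± 0.065 and the mitochondrial paralog Mthfd2l lower, at -1.40 ± 0.082. Aldh1l1, which removes formyl groups from folate in the cytosol, was at the floor on all 3 partial clone arrays and was at least 3.45-fold higher in the established clones (limma adjusted p = 0.000239). Of 3 other glycine and threonine genes Gcsh and Dld, which belong to the glycine cleavage complex with Gldc, were higher, at 0.55 ± 0.084 and 0.33 ± 0.063. Tha1, a threonine aldolase, was lower, at -0.54 ± 0.12, with 3 of the 5 clone arrays at the floor. Of 25 other transporters 14 were higher and 4 lower. Slc38a4, of the same family as Slc38a5, read 10.63 to 11.19 in the established clones, but was at the floor with both Tcf3 siRNAs and at 5.72 with control siRNA, so that its difference of 5.24 ± 0.099 is a lower limit. Slc43a1 was higher by 2.57 ± 0.14. Slc36a4 was lower, at -2.12 ± 0.16, with 2 of the 5 clone arrays at the floor. Of 6 methionine cycle and transsulfuration genes 4 were higher and 1 lower, with Gnmt (1.27 ± 0.11, 1 of 3 partial clone arrays at the floor) and Cbs (0.98 ± 0.084) at the top.

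**Figure D3:**
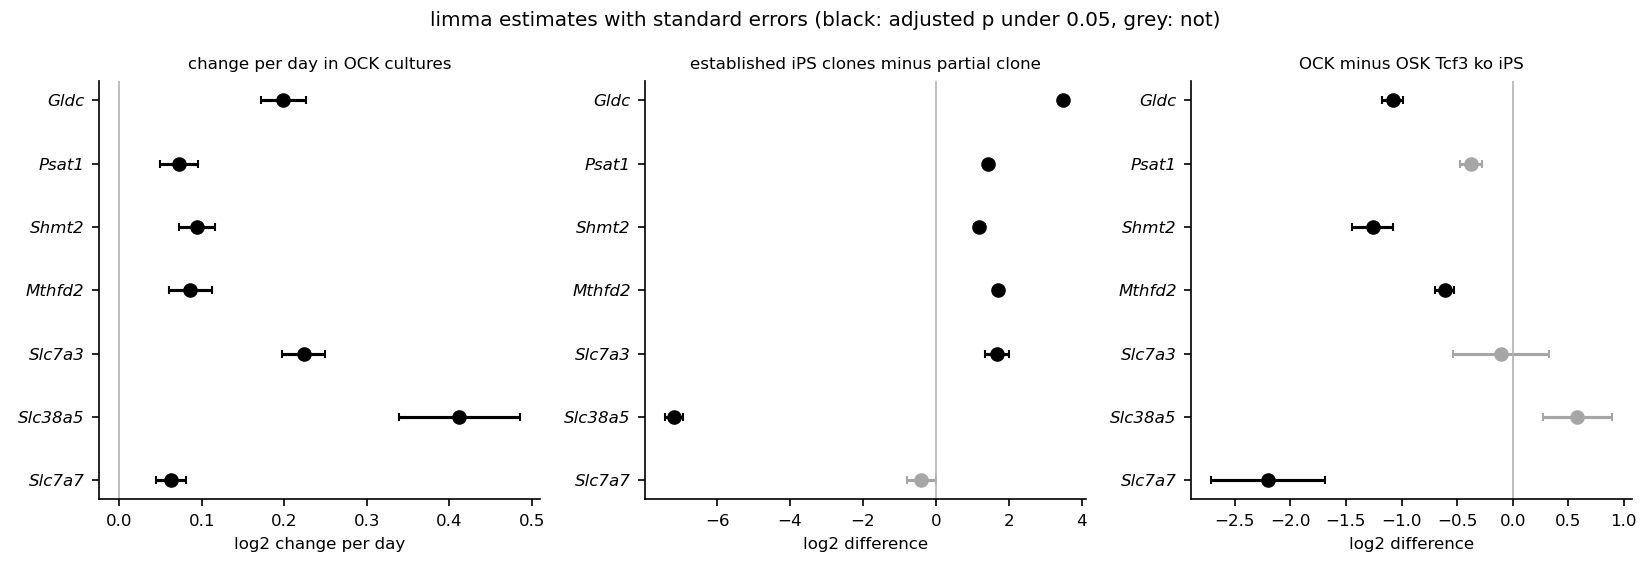
Limma estimates (x axes, log2) with standard errors for the 7 genes in 3 comparisons: change per day over 10 culture arrays, established clones minus partial clone, and OCK ko minus OSK ko clones. Black points had an adjusted p under the threshold of 0.05 and grey points did not. Slc38a5 has the largest estimate in the first 2 panels with opposite signs. In the third, 6 of the 7 genes lie below 0, and Gldc, Shmt2, Mthfd2 and Slc7a7 are the black ones.

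The OCK and OSK ko clones share the genotype and differ in the factors used, so their comparison asks whether clones made with OCK differ from clones made with OSK. Of the 7 genes 4 were lower in OCK ko clones. Gldc was lower by 2.11-fold (-1.08 ± 0.092, limma adjusted p = 0.00461), Shmt2 by 2.40-fold (-1.26 ± 0.19, 0.0150), Mthfd2 by 1.53-fold (-0.61 ± 0.088, 0.0144) and Slc7a7 by 4.60-fold (-2.20 ± 0.51, 0.0477). For each of them both OCK arrays lay below both OSK ko arrays and below the OSK wt array. Psat1 also lay lower on both OCK arrays, at -0.38 ± 0.096 (adjusted p = 0.0606), and did not pass. Slc38a5 (0.58 ± 0.31) and Slc7a3 (-0.11 ± 0.43) did not pass either, and for Slc7a3 the OCK clones, 1.27 apart, lay on both sides of the OSK clones. The background was 5.8% of 12905 genes passing as lower (748 lower and 629 higher; 598 and 804 with every array centred on its median).

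These 4 calls rest on few clones. Without OSK ko clone 1 or without clone 2 none of the 4 passed (adjusted p of 0.0565 to 0.215 and of 0.0686 to 0.220), where 8 and 18 of all genes did, while the estimates kept their size. In a fit of the 5 iPSC arrays alone 1 of the 4 passed, Gldc. Without OCK ko clone 1 Slc38a5 passed as higher (1.09 ± 0.12, limma adjusted p = 0.00328), and without OCK ko clone 2 Psat1 passed as lower (-0.42 ± 0.10, 0.0264). Slc7a7 was close to the threshold and did not pass with quantile normalization (0.0527) or median centring (0.0526), and the other Mthfd2 probe set gave -0.45 ± 0.10 (adjusted p = 0.0525). The pair of OSK ko clones differed from each other by 0.0012 (Slc7a3) to 0.12 (Slc38a5) over the 7 genes, and the pair of OCK ko clones by 0.040 (Mthfd2) to 1.75 (Slc7a7).

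Among the other pathway genes, Psph was lower in the OCK clones (-0.89 ± 0.085, limma adjusted p = 0.00538). Of 16 Atf4 response genes 10 were lower and 0 higher, with the median at -0.54 against -0.017 over all genes. The largest were Atf5, a relative of Atf4, at -1.54 ± 0.12, the lipoprotein receptor Vldlr at -1.47 ± 0.18 (1 OCK array at the floor) and Chac1, which degrades glutathione, at -1.01 ± 0.13. Of 24 other transporters 8 were lower and 0 higher, with Slc1a3 (-1.40 ± 0.23), Slc1a5 (-0.90 ± 0.13) and Slc1a4 (-0.81 ± 0.12) first. Of 13 other folate genes 2 were lower and 1 higher, where 4.87% of all genes passed as higher. Aldh1l2, the mitochondrial counterpart of Aldh1l1, was lower at -1.58 ± 0.17, and Mthfd2l was higher (0.59 ± 0.11, limma adjusted p = 0.0238). Of 6 methionine cycle and transsulfuration genes 3 were lower, Cth among them at -1.06 ± 0.12, and Ahcy was higher (0.51 ± 0.096, 0.0277). Without either OSK ko clone 0 of the 16 Atf4 genes and 0 of the 24 transporters passed, and in the 5 iPSC arrays alone 1 of each did.

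**Figure D4:**
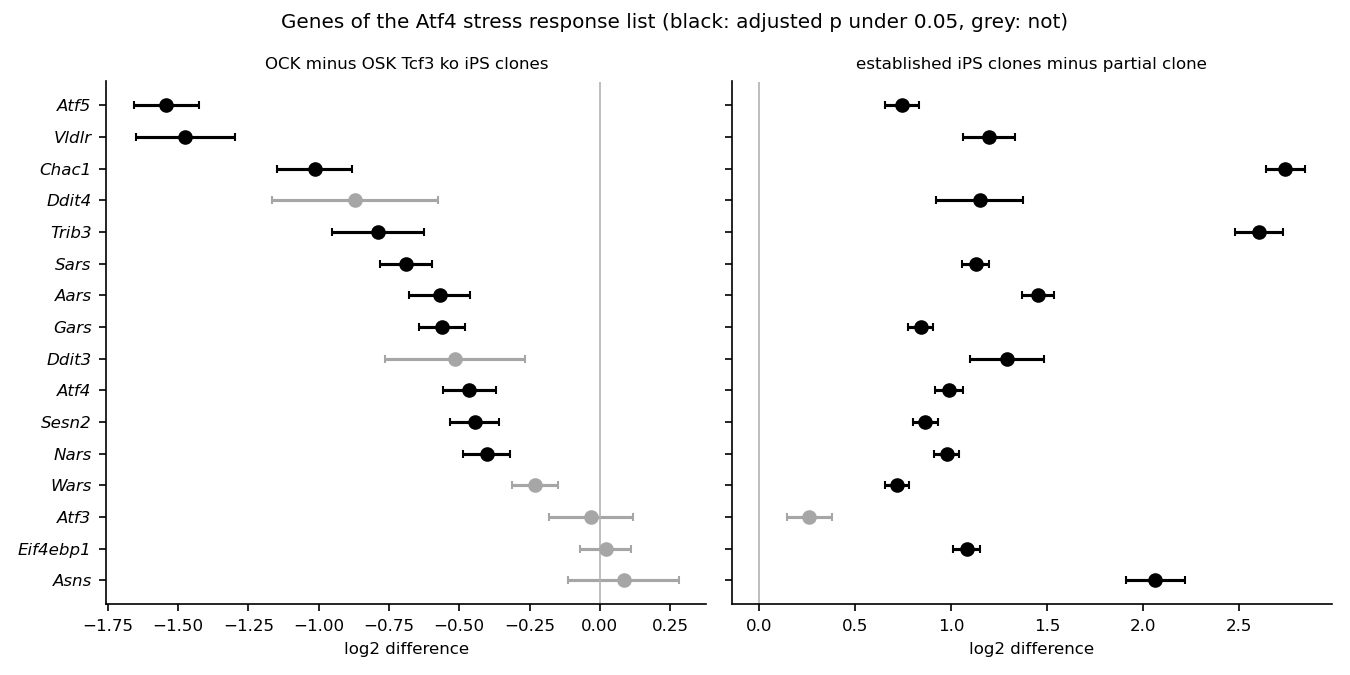
Limma estimates (x axes, log2) with standard errors for the 16 genes of the Atf4 response list, in OCK minus OSK ko clones (left) and established clones minus partial clone (right), black where the adjusted p was under 0.05. On the left 10 genes are black and all of them lie below 0, and on the right 15 are black and all of them lie above 0.

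The same 16 genes were higher in established clones than in the partial clone in 15 cases, with a median of 1.11, led by Chac1 (2.74 ± 0.10), Trib3 (2.61 ± 0.13) and Asns (2.06 ± 0.15). As background, 37.3% of all genes passed as higher in this comparison, with a median over all genes of 0.058. Both comparisons use the OCK and OSK ko clones, so they are not independent of each other. Of the cell type markers, 1 of 10 pluripotency markers was higher in OCK than in OSK ko clones (Fbxo15, 0.99 ± 0.18), and 0 of 9 fibroblast, 0 of 5 neuron and 0 of 4 proliferation markers passed. The mean of the fibroblast markers was 6.60 and 8.06 in OCK ko clones 1 and 2, and 7.23 and 7.11 in OSK ko clones 1 and 2. With the OCK pair so far apart, the missing calls do not show equal levels.

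The OSK clones and the siRNA arrays ask whether less Tcf3 changes these genes in pluripotent or partially reprogrammed cells. In OSK clones the ko arrays were above the single wt array for Gldc (0.26 ± 0.11), Shmt2 (0.42 ± 0.23), Mthfd2 (0.21 ± 0.11) and Psat1 (0.20 ± 0.12). None of the 7 passed (limma adjusted p between 0.417 and 0.996) or had an unadjusted p under 0.05, where 0.687% of 12670 genes did and 1623 had an unadjusted p under 0.05. The 3 transporters differed by less than 0.05 in size. For the first probe set listed for Gcat and Galr3 the difference was 0.79 ± 0.15 (limma adjusted p = 0.123).

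In the partial clone the mean of the siRNA arrays lay above the control by 0.79 ± 0.38 for Slc38a5 and by 0.44 ± 0.11 for Gldc, and both siRNA arrays did so. None of the 7 passed there either (limma adjusted p between 0.205 for Gldc and 0.960 for Mthfd2), and 1, Gldc, had an unadjusted p under 0.05, where 0.111% of 12636 genes did and 1602 had an unadjusted p under 0.05. Slc7a3 was higher with siRNA B (10.80) and not with A (10.08) than with control siRNA (10.12). Psat1, Shmt2 and Slc7a7 lay above the control on both siRNA arrays, by 0.088, 0.23 and 0.19 on average.

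By likeness of pattern over all 18 arrays, among 12452 genes above the floor on at least 9 of them, Mthfd2 and Psat1 were each other's nearest gene (Pearson r = 0.989). Gldc was most like Zfp239 (0.978), the epithelial adhesion gene Epcam (0.968) and Foxred2 (0.963), and Slc7a3 was most like Gdf3 (0.976), a growth factor of pluripotent cells, Eme1 (0.971) and Syce2 (0.967). Shmt2 was most like Xpot (0.968), which exports tRNA from the nucleus, Slc38a5 like A630001G21Rik (0.964) and Slc7a7 like Shkbp1 (0.943). These values describe 18 arrays of 7 groups that share their cell states, and most of the spread lies between the groups.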

How the data were processed

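The deposited table held 1 log2 value per probe set and array, made by the authors with RMA, per the submitters' processing notes; its version is not stated by the labels. In the deposited log2 values 44.9% to 46.6% of each array equalled the lowest value, 5.64. RMA sets arrays to a common scale, so a change in total RNA per cell is not seen. The probe set with the highest mean among those of a single gene stood for the gene. Limma 3.58.1 in R 4.3.3 was fitted to all genes, and p-values were adjusted over all genes tested (Benjamini-Hochberg, 0.05). Only never-floored genes set the limma prior, the variance of other genes was kept at or above it, and genes floored on all compared arrays stayed untested. The clone fit used 8 arrays with 1 mean per group, and groups with 1 array (OSK wt, control siRNA) borrow the spread of the groups with 2. Wt and ko cultures of a day deviated together (r = 0.536 to 0.912), and day was a block for the genotype effect. The code was tested on simulated data. The listed genes, the pathway lists and the rule for naming (up to 3 further genes per list and comparison with the largest change past the threshold) were chosen with earlier results of these data known. The number of arrays limits the precision.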

Additional observations from a re-analysis of the deposited data

Results flagged for a closer look

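The mean changes of Mthfd2 and Slc7a7 had opposite signs in the 2 comparisons of Tcf3 depletion, and none of these 4 changes passed. For Mthfd2 the mean change was 0.211 in OSK clones (ko minus wt) and -0.0219 in the partial clone (Tcf3 siRNA minus control), and each depleted array lay on the same side of its control. The second sign was turned with quantile normalization (0.046) and with median centring (0.044). On the other Mthfd2 probe set the OSK ko clones, at 11.39 and 11.25, lay on both sides of the wt clone at 11.29. For Slc7a7 the changes were -0.0408 and 0.188. By limma the difference of the 2 effects was 0.23 ± 0.15 for Mthfd2 (adjusted p = 0.610) and -0.23 ± 0.88 for Slc7a7 (0.957), and 0 of 13403 genes passed that test, with 1662 at an unadjusted p under 0.05. Dixon's ratio, taken over the 5 days of a genotype, flagged no culture array in the 20 groups of values tested. The days are not replicates and the rise over them widens the range, so this cannot show that no array stood apart.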

How the results depend on the processing

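Of 553 alternative values for single genes, 491 kept their direction and their side of the threshold, 41 no longer passed, 5 newly passed and 16 changed sign. Of the 7 genes that rose over time, 4 passed with the plain limma prior, 2 with the line through the day means and 0 to 7 when a day was left out. Of the 7 genes 4 passed in OCK ko against OSK ko clones, and 2 passed with the plain prior, 2 when each probe set was tested by itself with the other Mthfd2 probe set, 1 in the 5 iPSC arrays alone and 0 to 5 when a clone was left out. Mthfd2 after siRNA was 0.046 with quantile normalization and 0.044 with median centring. When a day was left out, the ko minus wt culture differences, none of which passed, ranged over both signs: -0.036 to 0.27 for Gldc, -0.028 to 0.23 for Shmt2, -0.17 to 0.15 for Mthfd2, -0.20 to 0.10 for Psat1, -0.022 to 0.38 for Slc38a5, -0.067 to 0.29 for Slc7a3 and -0.071 to 0.26 for Slc7a7. The slope difference of Slc7a7 ranged from -0.068 (without day 26) to 0.063. When a clone or siRNA was left out, Slc38a5 in OSK clones ranged from -0.11 to 0.014, Slc7a3 in OCK minus OSK from -0.74 to 0.53 and Slc7a3 after siRNA from -0.043 to 0.68. The causes were not tested.

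With the clone number as a replicate block 4 genes were lower in OCK clones, as without it. The numbers share no stated origin (correlation of deviations -0.12), and with the crossed pairing, added after the data were seen, 4 passed as well. Pairing by day changed no call for the slope difference (0 with day as a replicate block) or for ko against wt (0 with no block).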
